A study of Mus musculus with 8 samples.

Results

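The 10 genes described here encode cathepsins, the main proteases of the lysosome: Ctsa, Ctsb, Ctsc, Ctsd, Ctsf, Ctsh, Ctsl, Ctso, Ctss and Ctsz. They were taken by symbol from a count table of 26642 genes and loci, in which each occupied 1 row. The table covers mRNA of CT26 cells, a mouse colon carcinoma line, from 4 libraries of unedited cells (WT) and 4 libraries of cells with a Tead1/4 knockout (KO), all grown in RPMI medium with serum. Tead1 and Tead4 encode transcription factors that bind DNA for the Hippo pathway cofactors YAP and TAZ. Whether the knockout cells are a clone or a pool, and which part of each gene was edited, is not given in the labels. Nothing in the labels says that the replicates grew as separate cultures. A p-value here therefore weighs the spread of these libraries alone, and that spread may be technical.

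Cathepsins are made as inactive precursors, receive a mannose 6-phosphate tag in the Golgi, are carried to the lysosome by tag receptors and are activated there by cleavage in acid. They fall into catalytic classes: cathepsin D is an aspartic protease, cathepsin A is a serine carboxypeptidase, and the remaining 8 products belong to the papain-like cysteine proteases, which cystatins inhibit. Besides breaking down proteins in lysosomes, cathepsins trim antigens for presentation, and tumour cells can release them to act on the surrounding matrix.

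Total counts per library lay between 29679405 and 32774905. Levels are in CPM, counts scaled to a common library size with TMM factors. Log2 fold changes (KO minus WT) and their standard errors (SE) come from edgeR's quasi-likelihood test over 13265 rows, and a call needs an adjusted p under 0.05. Genes with a count numbered 14566 to 15430 in the WT libraries, 14345 in KO replicate 1 and 17759 to 17948 in KO replicates 2 to 4, at similar depth. KO replicate 3 stood apart in its mitochondrial transcripts, described further on. Tead1 stood at 319, 155, 142 and 209 CPM in WT replicates 1 to 4 and at 51.2, 64.8, 76.3 and 77.8 in the KO libraries (log2 fold change -1.61, edgeR adjusted p = 0.00217). Tead4 stood at 52.1, 36.7, 39.4 and 63.2 CPM in WT and at 25.9, 23.3, 31.2 and 37.0 in KO (-0.71, edgeR adjusted p = 0.0261), with KO replicate 4 inside the WT range. The Tead4 call was lost without WT replicate 1 or 4 or KO replicate 2 or 3 (edgeR adjusted p = 0.0601, 0.0664, 0.0800 and 0.0606). Reads were counted over the whole gene, which leaves protein loss unmeasured.

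Of the 10 cathepsin genes, 6 were expressed and tested: 4 rose in the knockout libraries (Ctso, Ctsd, Ctsb and Ctsz), none fell, and Ctsl and Ctsa did not pass the test. Among all rows tested, 41.6% were called, 20.9% as higher and 20.6% as lower. All 4 KO libraries lay above all 4 WT libraries for the same 4 cathepsins and below them for none, against 21.1% and 19.6% of all rows. The median log2 fold change was 0.89 over these 6 genes and 0.02 over all rows. All 6 had at least 56 counts in every library, so none entered the test through the knockout libraries alone. Ctsc, Ctsf, Ctsh and Ctss had at most 2 counts in all 8 libraries together and were not tested. In these bulk libraries, fewer cells with an mRNA and less of it per cell cannot be told apart.

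**Figure D1:**
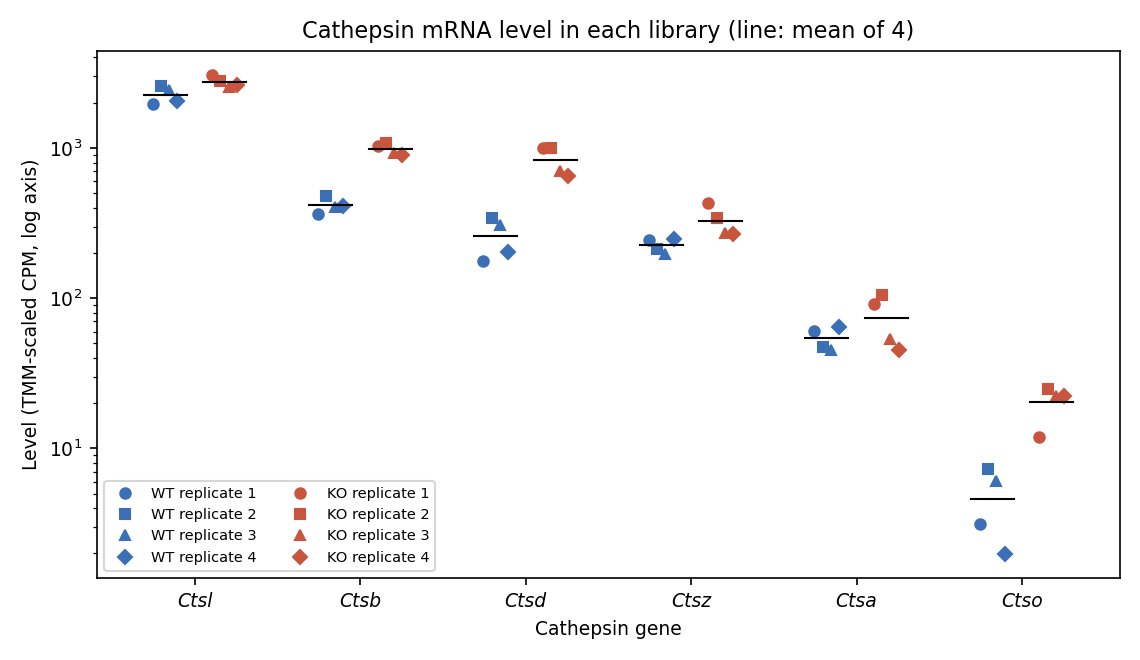
Level of the 6 expressed cathepsins (horizontal axis) in each library (vertical axis, TMM-scaled CPM, log axis). Each point is 1 library, blue for WT and red for KO, with a symbol for each replicate number, and the lines are means of 4. The KO points of Ctsb, Ctsd, Ctsz and Ctso lie above all WT points, while those of Ctsl and Ctsa overlap them.

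Ctsd, the aspartic protease gene (ENSMUSG00000007891; GRCm38 chromosome 7, 142375911 to 142388038, minus strand), stood at 178, 343, 308 and 203 CPM in WT replicates 1 to 4 and at 993, 999, 701 and 650 CPM in KO replicates 1 to 4. The lowest knockout library was 1.90 times the highest WT library. The mean rose from 258 ± 79.7 to 836 ± 186 CPM (SD, n = 4 per genotype), a log2 fold change of 1.70 (SE 0.26, edgeR adjusted p = 0.00159), or 3.24-fold with a 95% interval of 2.17 to 4.84. Its WT libraries fell into pairs, replicates 2 and 3 being 1.71 times replicates 1 and 4. Measured from the mean of replicates 1 and 4 the KO mean was 4.38-fold, and from that of replicates 2 and 3 it was 2.57-fold. Ctsd shares 808 exon bases with the predicted gene Gm49369 on the same strand, which was at 0.980 CPM or less in every library.

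Ctsb, a cysteine protease with both endopeptidase and carboxydipeptidase activity (ENSMUSG00000021939; chromosome 14, 63122462 to 63145923, plus strand), stood at 366, 478, 406 and 410 CPM in WT and at 1031, 1084, 930 and 891 CPM in KO. Both genotypes were tight, with a coefficient of variation of 11.2% in WT and 9.05% in KO, and the ranges were far apart. The mean rose from 415 ± 46.4 to 984 ± 89.0 CPM (a log2 change of 1.25 with SE 0.16, adjusted p = 0.000817 by edgeR), which is 2.37-fold with a 95% interval of 1.86 to 3.03. The exons of Ctsb share 774 bases with those of Fdft1, the squalene synthase gene, on the other strand. Fdft1 went the other way, from 120 to 141 CPM in WT to 45.4 to 101.5 in KO (log2 fold change -1.04, edgeR adjusted p = 0.00882). If strand was not used in counting, reads in the shared bases cannot be told apart.

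Ctso, a widely expressed cysteine cathepsin whose substrates are less well known (ENSMUSG00000028015; chromosome 3, 81932601 to 81956725, plus strand), had the largest fold change of the family at the lowest level of the 6. It stood at 3.17, 7.34, 6.07 and 1.99 CPM in WT and at 12.0, 24.8, 22.2 and 22.3 CPM in KO. KO replicate 1 was the lowest knockout library and still 1.63 times the highest WT library. The mean rose from 4.64 ± 2.49 to 20.3 ± 5.70 CPM (a log2 change of 2.13 with SE 0.41, adjusted p = 0.00376 by edgeR), or 4.37-fold with a 95% interval of 2.34 to 8.18. WT replicates 2 and 3 were 2.60 times WT replicates 1 and 4, so the KO mean was 7.89 times the mean of replicates 1 and 4 and 3.03 times that of replicates 2 and 3.

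Ctsz, a cysteine carboxypeptidase gene also known for binding integrins (ENSMUSG00000016256; chromosome 2, 174427493 to 174439039, minus strand), showed a smaller increase. Its levels were 242, 214, 197 and 249 CPM in WT and 430, 340, 270 and 268 CPM in KO. The groups did not overlap, but the lowest knockout library was only 1.08 times the highest WT library. The mean went from 225 ± 24.3 to 327 ± 76.4 CPM (a log2 change of 0.54 with SE 0.18, adjusted p = 0.0398 by edgeR), 1.45-fold with a 95% interval of 1.09 to 1.93. The call was lost when WT replicate 1, 2, 3 or 4 was left out (edgeR adjusted p = 0.0682, 0.0857, 0.0888 and 0.0633). It was also lost without KO replicate 1 (log2 fold change 0.36, edgeR adjusted p = 0.0684) or KO replicate 2 (0.53, 0.0858) and held without KO replicate 3 (0.63) or 4 (0.63).

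Ctsl, the most abundant of the family and a potent endopeptidase (ENSMUSG00000021477; chromosome 13, 64359337 to 64370890, minus strand), stood at 1963, 2603, 2426 and 2061 CPM in WT and at 3072, 2783, 2533 and 2634 CPM in KO. KO replicate 3 lay below WT replicate 2. The means were 2263 ± 302 and 2755 ± 235 CPM, and the log2 fold change of 0.28 (SE 0.19) did not pass (edgeR adjusted p = 0.249). The 95% interval of the fold, 0.908 to 1.63, leaves out a doubling but holds both no change and a rise of the size seen for Ctsz. Of the Ctsl exons, 1742 bases are shared with Gm47123 on the other strand and 395 with Gm49230, neither of them analysed here, so the level of Ctsl may hold reads of these genes.

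Ctsa, the serine carboxypeptidase gene whose product protects neuraminidase and beta-galactosidase in a complex (ENSMUSG00000017760; chromosome 2, 164832873 to 164841032, plus strand), split within the knockout. It stood at 60.8, 47.4, 45.6 and 63.9 CPM in WT. KO replicates 1 and 2 were at 92.0 and 104.7 CPM, above every WT library, and KO replicates 3 and 4 were at 53.8 and 45.5, inside the WT range or just below it. The log2 fold change of 0.44 (SE 0.27) did not pass (edgeR adjusted p = 0.208), with a 95% interval of 0.897 to 2.06 for the fold.

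That order of the knockout libraries was shared: replicates 1 and 2 both lay above replicates 3 and 4 for Ctsa, Ctsb, Ctsd, Ctsl and Ctsz, 5 of the 6 expressed cathepsins. Over all rows tested, 32.6% showed it. Ctso was the exception, with KO replicate 1 lowest. In WT, replicates 1 and 4 both lay below replicates 2 and 3 for Ctsd, Ctsl and Ctso (35.4% of all rows) and above them for Ctsa and Ctsz (32.8% of all rows). These pairings of libraries were noticed in the data, and the labels give no batch. The knockout order was taken from the cathepsin levels themselves, so the 5 of 6 is a description and not a test. Over whole libraries KO replicates 2 and 4 were the closest knockout pair, with a chi-square per degree of freedom of 66.4. It was 118 for KO replicates 1 and 2 and 116 for KO replicates 3 and 4.

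The 4 remaining genes were close to absent. Ctsc, the dipeptidyl peptidase that activates granule proteases of leukocytes (ENSMUSG00000030560; chromosome 7, 88278085 to 88310888), and Ctsh, an aminopeptidase (ENSMUSG00000032359; chromosome 9, 90054152 to 90076089), had 0 counts in all 8 libraries. Ctss, the protease of invariant chain processing in antigen-presenting cells (ENSMUSG00000038642; chromosome 3, 95526786 to 95556403), had 2 counts, both in KO replicate 3. Ctsf, a widely expressed cysteine cathepsin (ENSMUSG00000083282; chromosome 19, 4855130 to 4860918), had 2 counts, both in KO replicate 4. A count of 0 allows up to 3 counts, which is 0.0873 to 0.110 CPM in these libraries and covers counting error only, so no fold is given. Of 13 further cathepsin genes, 9 had no count in any library and 1 was tested: Ctsk, the collagen-degrading cathepsin of osteoclasts, lay between 0.147 and 0.497 CPM in WT and between 0.214 and 0.756 in KO (log2 fold change 0.72, edgeR adjusted p = 0.326). Ctse, Ctsw and Ctsq had at most 7 counts in any library.

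Levels of different genes are compared per kilobase of the principal transcript. In WT the order was Ctsl (1148 ± 153 CPM per kb), Ctsz (156 ± 16.9), Ctsd (121 ± 37.5), Ctsb (87.4 ± 9.78), Ctsa (14.9 ± 2.55) and Ctso (1.34 ± 0.717). The ranges of Ctsz and Ctsd overlapped, as did those of Ctsd and Ctsb. In KO, Ctsd (393 ± 87.7 CPM per kb) stood above Ctsz (227 ± 53.1) and Ctsb (207.5 ± 18.8) in every library, and the last pair overlapped. Ctsl remained the most abundant at 1398 ± 119 CPM per kb, Ctsa was at 20.3 ± 7.90 and Ctso at 5.86 ± 1.64. Within each genotype the order of the means stayed as given here when the union of all exons served as the length.

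Summed over the family, cathepsin reads made up 0.254% to 0.364% of all counts in WT libraries and 0.488% to 0.572% in KO libraries. Per kilobase, Ctsl supplied 73.7% to 76.4% of cathepsin mRNA in WT and 59.3% to 65.7% in KO. The share of Ctsd was 6.23% to 9.23% in WT and 15.0% to 19.7% in KO, and that of Ctsb 5.31% to 6.09% and 8.46% to 9.71%. With exon-union lengths the shares of Ctsl were lower (48.3% to 52.0% in WT, 33.1% to 39.4% in KO), and the ranges of the genotypes stayed apart for Ctsl, Ctsd and Ctsb.

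**Figure D2:**
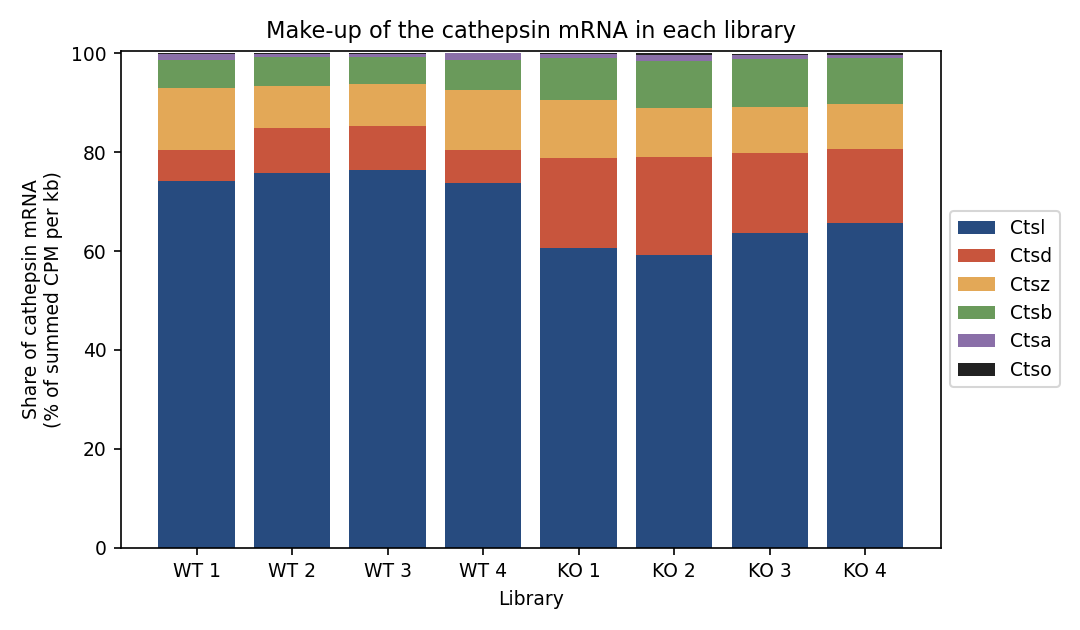
Make-up of cathepsin mRNA in each library (horizontal axis), as the percent each gene supplies of the summed CPM per kilobase (vertical axis). The Ctsl segment is 73.7% to 76.4% in WT and 59.3% to 65.7% in KO, and the Ctsd segment grows from at most 9.23% to at least 15.0%.

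Ratios between cathepsins within a library do not depend on the scaling. The count of Ctsb was 0.186, 0.184, 0.167 and 0.199 times that of Ctsl in WT replicates 1 to 4 and 0.336, 0.390, 0.367 and 0.338 times in KO. The ratio of Ctsd to Ctsl was 0.0906, 0.132, 0.127 and 0.0987 in WT and 0.323, 0.359, 0.277 and 0.247 in KO. Both ratios were higher in every knockout library than in any WT library. Of 15 pairs of expressed cathepsins compared, 7 had genotypes that did not overlap, each at an exact two-sided permutation p of 0.0286, the smallest that 70 assignments can give. After adjustment over the 15 pairs the p was 0.0613 and none passed. All 7 had Ctsb, Ctsd or Ctso, each already called higher, as the numerator, so the count adds little to those calls. Of all single rows tested, 21.1% lay wholly above WT in KO and 19.6% wholly below. The share over pairs of all rows was not computed. Ctsd against Ctsb was not among the 7: the ratio was 0.487 to 0.759 in WT and 0.729 to 0.963 in KO (exact permutation p = 0.0857, adjusted 0.117).

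**Figure D3:**
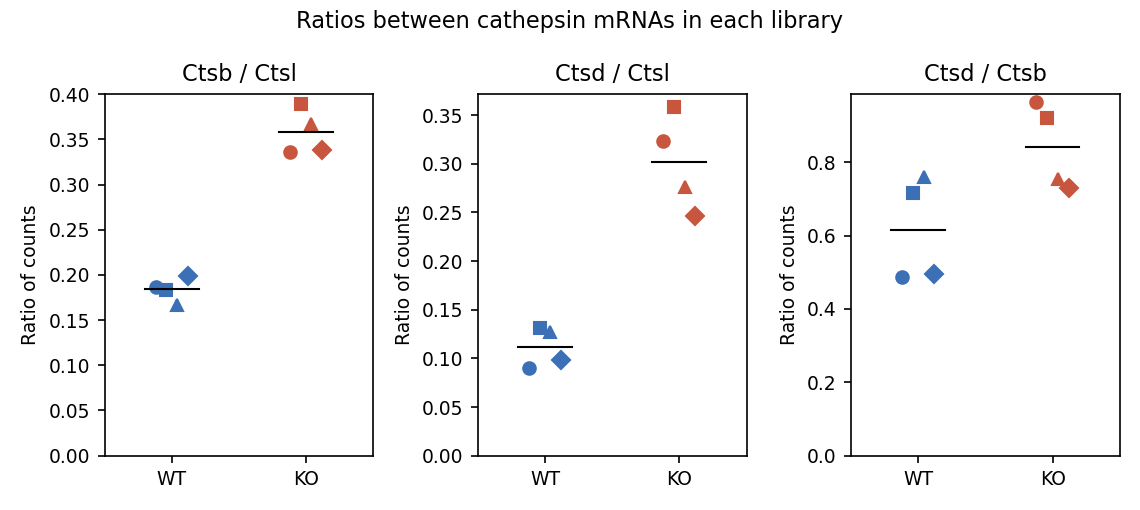
Ratio of counts between cathepsin mRNAs (vertical axes, from 0) in WT and KO libraries (horizontal axes). Each point is 1 library and each line a mean of 4. Ctsb and Ctsd relative to Ctsl are higher in all 4 KO libraries, at 0.336 to 0.390 and 0.247 to 0.359, while Ctsd relative to Ctsb overlaps.

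The start regions of the genes were read to see which carry the letters CACGTG, the core of the element bound by TFEB and its relatives at lysosomal genes. RefSeq windows on GRCm38.p6, from 250 bases before to 50 after each start, were at hand for 8 of the 10 genes (9 windows), all but Ctsb and Ctsh. Of these genes 4 held CACGTG, which reads the same on both strands and occurs in 7.15% of 32851 windows of the same length. Ctsd and Ctsa held the longer form GTCACGTG on either strand (2.25% of windows), with 2 sites each. The sites are shown as 30 bases, 5′ to 3′ on the strand of the gene, with CACGTG in capitals.
Ctsd, 245 bases before the start, chr7:142388048-142388077, minus strand: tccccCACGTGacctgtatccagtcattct
Ctsd, 98 bases before the start, chr7:142387908-142387937, minus strand: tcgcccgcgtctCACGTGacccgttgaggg
Ctsa, 12 bases before the downstream start, chr2:164833749-164833778, plus strand: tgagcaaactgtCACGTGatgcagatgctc
Ctsa, after the downstream start, chr2:164833766-164833795, plus strand: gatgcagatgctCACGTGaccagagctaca
Ctsl, 236 bases before the start, chr13:64370739-64370768, minus strand: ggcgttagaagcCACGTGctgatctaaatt
Ctsf, 79 bases before the start, chr19:4855074-4855103, plus strand: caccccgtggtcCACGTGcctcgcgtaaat
The Ctsd site nearer the start, both Ctsa sites and the Ctsl site lie in exons annotated by GENCODE. Of the genes that carry the letters, Ctsd rose, Ctsl and Ctsa did not pass the test and Ctsf was near absent.

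Ctso and Ctsz rose and held no CACGTG in their windows. Their 250 bases before the start are shown for comparison, with CCAAT (or ATTGG) and GGGCGG (or CCGCCC) in capitals. On either strand these occur in 37.4% and 35.7% of all windows.
Ctso, chr3:81932351-81932600, plus strand: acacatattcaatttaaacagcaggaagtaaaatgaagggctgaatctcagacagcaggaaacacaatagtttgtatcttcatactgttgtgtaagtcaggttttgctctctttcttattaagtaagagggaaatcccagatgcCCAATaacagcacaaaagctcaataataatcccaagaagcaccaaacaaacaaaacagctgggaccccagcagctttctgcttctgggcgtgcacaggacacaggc
Ctsz, chr2:174439040-174439289, minus strand: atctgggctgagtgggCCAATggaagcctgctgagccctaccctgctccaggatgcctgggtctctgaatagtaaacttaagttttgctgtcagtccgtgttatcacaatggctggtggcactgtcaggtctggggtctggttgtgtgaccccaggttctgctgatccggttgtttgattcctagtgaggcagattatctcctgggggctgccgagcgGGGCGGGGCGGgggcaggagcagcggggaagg
The Ctso stretch holds a single CCAAT, and the Ctsz stretch holds CCAAT far from the start and overlapping GGGCGG copies close to it. GGAATG, or CATTCC on the other strand, the core letters bound by TEAD factors, occurred in 14.7% of all windows and in none of the 9 windows of cathepsin genes. A match, or its lack in so short a window, is a description only.

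Genes for cathepsin inhibitors were tested in 4 of 20 listed cases, of which 3 rose and none fell. Over all rows tested, 20.9% were called higher and 20.6% lower. Cstb, the cytosolic inhibitor stefin B, stood at 56.1, 78.9, 82.7 and 76.6 CPM in WT and at 193, 172, 138 and 132 CPM in KO (a log2 change of 1.11 with SE 0.18, adjusted p = 0.00199 by edgeR). All knockout libraries were above all WT libraries. Cst3, which encodes the secreted inhibitor cystatin C, stood at 124, 206, 290.5 and 109 CPM in WT and at 331, 443, 262 and 255 in KO, with WT replicate 3 inside the KO range (0.83, SE 0.32, edgeR adjusted p = 0.0615). Without WT replicate 3 it passed (1.12, edgeR adjusted p = 0.0145). Ctla2a and Ctla2b, which resemble the propeptide of cathepsin L, rose from under 3 CPM in every WT library by 2.02 and 1.61 on the log2 scale (edgeR adjusted p = 0.00302 and 0.0123). This pair is similar in sequence, so the level of each is uncertain. Per kilobase, the sum of Cst3 and Cstb was 0.191 to 0.326 times that of the cysteine cathepsins Ctsb, Ctsl, Ctso and Ctsz in WT and 0.301 to 0.425 times in KO, so the ranges overlapped.

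Among 11 genes for activation, sorting and partner proteins, all tested, 6 rose and 1 fell, with a median log2 fold change of 0.72. The shares over all rows tested were 20.9% higher and 20.6% lower, and the median was 0.02. The decrease was in Gnptab, the catalytic precursor of the enzyme that starts the mannose 6-phosphate tag. Its levels were 219, 107, 103 and 192 CPM in WT and 73.0, 71.5, 66.3 and 71.8 CPM in KO, all below WT (a log2 change of -1.13 with SE 0.25, adjusted p = 0.00662 by edgeR). Its partner subunit gene Gnptg rose from 8.94 to 14.5 CPM in WT to 15.8 to 26.5 in KO (0.70, edgeR adjusted p = 0.0350), a call lost without WT replicate 1 (0.0894) or 4 (0.0865) or KO replicate 1 (0.0627) or 2 (0.105). Of the tag receptor genes, Igf2r rose from 2.66 to 5.08 CPM in WT to 10.4 to 16.2 in KO (a log2 change of 1.79 with SE 0.26, adjusted p = 0.00133 by edgeR). M6pr stood at 179 to 198 CPM in WT and 163 to 207 in KO (-0.08, edgeR adjusted p = 0.672; 0.10 with library size only).

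The partners of cathepsin A both rose although Ctsa did not pass. Neu1, the lysosomal neuraminidase, went from 5.04 to 6.93 CPM in WT to 12.1 to 20.5 in KO (a log2 change of 1.45 with SE 0.22, adjusted p = 0.00166 by edgeR). Glb1, the beta-galactosidase, went from 31.0 to 50.9 CPM in WT to 55.8 to 77.3 in KO (0.78, edgeR adjusted p = 0.0104). Psap, which encodes the precursor of saposins, rose by 0.77 (edgeR adjusted p = 0.0066), and Scarb2, a carrier of lysosomal glucocerebrosidase, by 0.72 (edgeR adjusted p = 0.00543). Lgmn, the legumain that cleaves cathepsins into chains, stood at 68.3 to 109 CPM in WT and at 50.4 to 97.2 in KO (-0.42, edgeR adjusted p = 0.164). Without KO replicate 1, its highest knockout library, Lgmn passed as lower (-0.67, edgeR adjusted p = 0.0154). Sort1, an alternative sorting receptor, was low, at 0.717 CPM or less in WT and at 0.948 to 2.04 in KO, without overlap. Its log2 fold change of 1.55 did not pass (edgeR adjusted p = 0.122). Nagpa, the enzyme that uncovers the tag, had a log2 fold change of -0.26 (edgeR adjusted p = 0.479).

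Of the MiT/TFE transcription factors that drive lysosomal genes, Mitf rose, from 13.8, 13.5, 9.40 and 17.5 CPM in WT to 21.7, 37.1, 45.9 and 51.2 in KO (a log2 change of 1.52 with SE 0.28, adjusted p = 0.00333 by edgeR). Tfeb (0.18, edgeR adjusted p = 0.490) and Tfe3 (-0.26, edgeR adjusted p = 0.173) did not pass, and Tfec had 0 counts in WT and at most 15 in a KO library. These are mRNA levels, whereas the factors are known to be governed largely by their location in the cell. Among 30 other lysosomal hydrolases and membrane proteins, all tested, 14 rose and 1 fell, with a median log2 fold change of 0.53. For all rows tested these figures were 20.9% higher, 20.6% lower and a median of 0.02. Among the larger increases were those of Idua, the iduronidase (log2 fold change 1.32), and Tpp1, a lysosomal tripeptidyl peptidase (1.30, or 107, 100.7, 83.4 and 111 CPM in WT and 209, 304, 251 and 230 in KO). Their edgeR adjusted p were 0.00267 and 0.000743. Arsb, arylsulfatase B, fell by 1.12 (edgeR adjusted p = 0.0179), with adjusted p between 0.0507 and 0.0528 without WT replicate 1 or KO replicate 3 or 4.

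Cathepsin S and L are known for cutting the invariant chain of MHC class II, so its partners were read as well. Cd74, the invariant chain gene, stood at 1.03, 3.45, 0.842 and 1.70 CPM in WT and at 13.8, 7.52, 15.4 and 17.3 in KO (a log2 change of 2.94 with SE 0.46, adjusted p = 0.00178 by edgeR). H2-DMa rose by 1.16 (edgeR adjusted p = 0.0303) with overlapping groups, and its call was lost in 6 of the 8 fits with a library left out (edgeR adjusted p up to 0.103) and with limma-voom (0.0513). Of 8 genes of this list in the table only this pair was tested: the class II chain genes H2-Aa, H2-Ab1 and H2-Eb1, the activator gene Ciita, H2-DMb1 and H2-DMb2 were at 0.122 CPM or less in every library. Of the cathepsins known for this step, Ctss was near absent and Ctsl stood at 1963 CPM or more in every library.

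**Figure D4:**
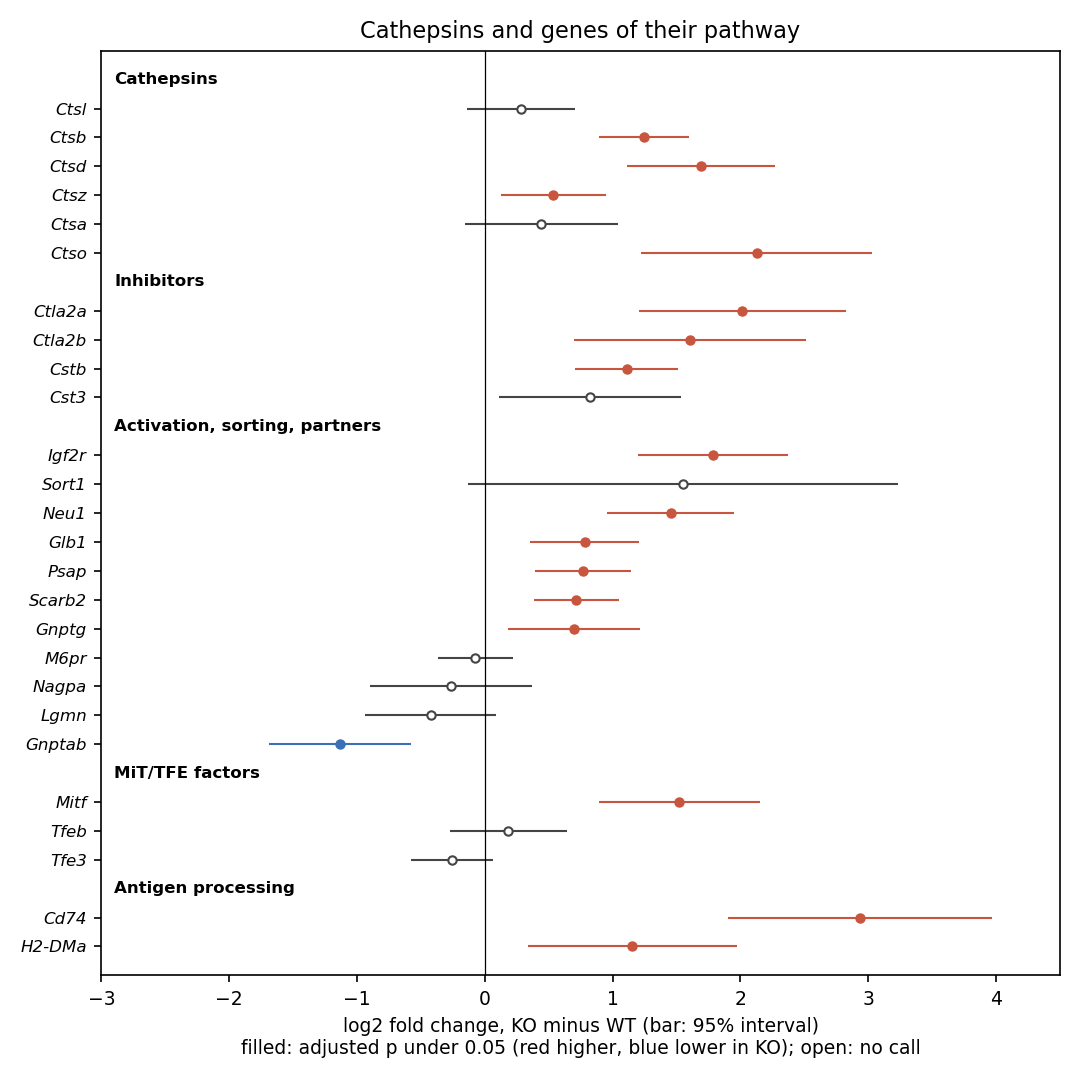
Log2 fold change, KO minus WT (horizontal axis), of the tested cathepsins and of the genes for their inhibitors, activation and sorting, transcription factors and antigen processing (vertical axis). Points are estimates with 95% intervals, filled red for called higher, filled blue for called lower and open for no call. Among the cathepsins Ctso (2.13), Ctsd (1.70), Ctsb (1.25) and Ctsz (0.54) are filled, and Gnptab (-1.13) is the single gene called lower.

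Macrophages are rich in cathepsins, so markers of other cell types were read beside these results. Of 13 leukocyte and macrophage markers 3 were tested and rose: the endosomal glycoprotein gene Cd68 (1.08 to 3.35 CPM in WT, 8.77 to 12.3 in KO), the lysozyme gene Lyz2 (at most 0.405 in WT, 1.07 to 4.17 in KO) and the lipopolysaccharide receptor gene Cd14 (17.5 to 37.0 in WT, 47.0 to 67.5 in KO). Their adjusted p by edgeR were 0.00167, 0.00855 and 0.00674, where 20.9% of all rows tested were called higher. The list summed to 21.2 to 38.5 CPM in WT and 57.3 to 82.5 in KO. The defining genes Adgre1, Tyrobp and Cd3e had 0 counts in every library, and Ptprc, Csf1r, Itgam, Fcgr1, Aif1 and Itgax were at 0.335 CPM or less. Of these untested genes, Csf1r, Fcgr1 and Aif1 had 0 counts in WT and at most 6 in a KO library. Itgax had at most 2 counts in a WT library and 4 to 11 in KO, while Ptprc and Itgam had a few counts in both genotypes. Of 5 endothelial markers, Vwf rose (at most 0.337 CPM in WT, 1.30 to 10.9 in KO, edgeR adjusted p = 0.0028) and the others were at 0.397 CPM or less. Of 7 fibroblast markers 6 were tested, 4 rose and none fell, against 20.9% and 20.6% of all rows tested. The collagen gene Col3a1 went from 5.75 to 49.0 CPM in WT to 68.6 to 212 in KO, and the small proteoglycan gene Dcn from at most 0.142 to between 2.37 and 14.4. The growth factor receptor genes Pdgfra and Pdgfrb went from 5.34 to 10.4 and 23.0 to 56.1 CPM in WT to 26.2 to 44.2 and 56.4 to 110.4 in KO. The adjusted p by edgeR for Col3a1, Dcn, Pdgfra and Pdgfrb were 0.0152, 0.000803, 0.000837 and 0.026. In WT, Lyz2 had at most 11 counts, Vwf at most 10 and Dcn at most 4, so these genes entered the test through the KO libraries. A call of lower was hardly open to them, and their p-values are no test of direction. Col1a1 and Col1a2 did not pass and made up most of the list's sum, which was 1409 to 2126 CPM in WT and 1745 to 2341 in KO. The part of any of these genes in the cathepsin levels was not tested. Of the labelled cell type's markers, Krt18 rose from 36.3 to 42.8 CPM in WT to 70.0 to 88.9 in KO (edgeR adjusted p = 0.00107). Krt20 stood at 20.4 to 62.9 and 34.0 to 53.2 CPM (edgeR adjusted p = 0.289). Krt8 was low, at 0.497 CPM or less in WT and 0.790 to 1.005 in KO (edgeR adjusted p = 0.121). Epcam had 0 counts in all libraries, and Cdh1, Cdx2, Krt19 and Vil1 were at 0.213 CPM or less.

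The sum of 9 mitochondrial transcripts, read as a sign of RNA composition, was 10890, 38960, 30360 and 9434 CPM in WT replicates 1 to 4 and 41690, 44050, 1122 and 47620 in KO. KO replicate 3 was far below the rest, and WT replicates 1 and 4, the lower WT libraries for Ctsd, Ctsl and Ctso, were below 2 and 3. Without KO replicate 3 the log2 fold changes of Ctsb, Ctsd and Ctso were 1.28, 1.78 and 2.10, and without KO replicate 1 they were 1.21, 1.59 and 2.30.

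Across the alternatives tried, Ctsb, Ctsd and Ctso kept their direction and stayed under an adjusted p of 0.05. The log2 fold change lay between 1.18 and 1.42 for Ctsb, between 1.55 and 1.86 for Ctsd and between 1.85 and 2.43 for Ctso. With library size only or upper-quartile factors, which move the median of all rows from 0.02 to 0.20, Ctsl stood at 0.45 and Ctsa at 0.62, still without a call.

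**Figure D5:**
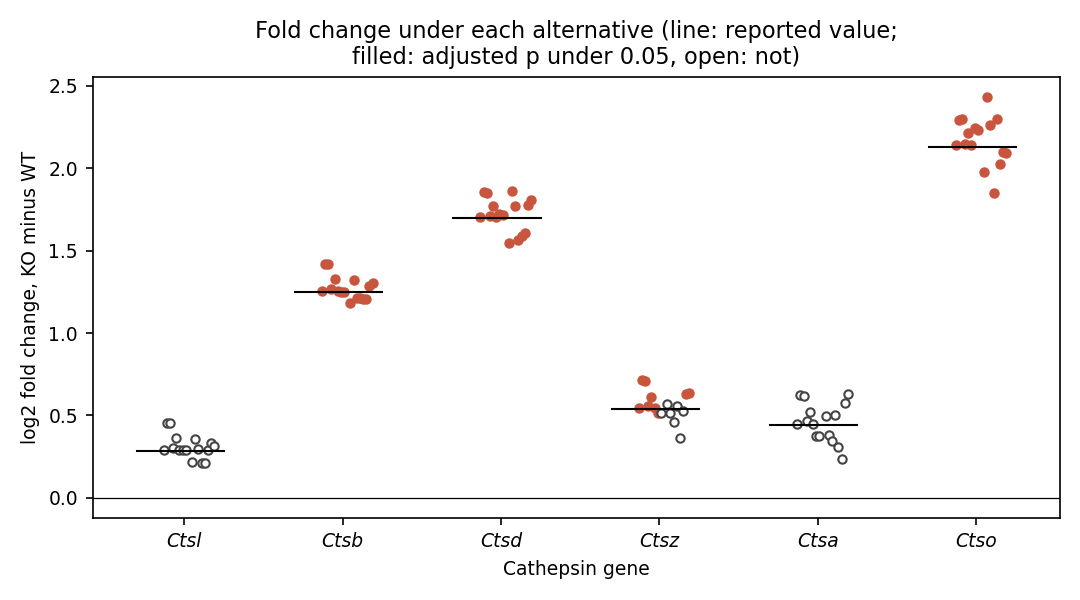
Log2 fold change, KO minus WT (vertical axis), of the 6 expressed cathepsins (horizontal axis) under each alternative scaling, filter, test, block or left-out library. Each point is 1 alternative, filled where the adjusted p is under 0.05 and open where it is not, and lines are the reported values. Points for Ctsb (1.18 to 1.42), Ctsd (1.55 to 1.86) and Ctso (1.85 to 2.43) are all filled, those for Ctsz are mixed and those for Ctsl and Ctsa are all open.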

How the data were processed

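Messenger RNA of 8 CT26 libraries was measured, 4 WT and 4 KO by title. The authors deposited raw counts per gene in 2 tables with the same values over 26642 rows, and the one with symbols was used. HISAT2, StringTie and GRCm38 are named in the submitters' processing notes. Not given in the sources used here: which program counted reads, whether it used strand and how it treated reads shared by genes. Rows were filtered with filterByExpr (minimum count 10, total 15), scaled with TMM and tested with edgeR 4.0.16 (glmQLFTest, R 4.3.3, two-sided, no covariates), with Benjamini-Hochberg adjustment over all 13265 rows. The SE is the log2 fold change divided by the square root of F. Alternatives were other scalings and filters, DESeq2 1.42.0, limma 3.58.1 (voom), a block for the replicate number, a threshold of 0.01 and each library left out. The test was checked on simulated counts, in which it missed most of the smaller changes put in. A gene without a call may therefore still have changed. Libraries of a genotype differed beyond sampling noise (chi-square per degree of freedom 34.7 to 257), WT replicates 1 and 4 and WT replicates 2 and 3 being closest. Positions and lengths are from GENCODE M21, lengths being those of the APPRIS principal transcript. The members and gene lists were chosen with earlier results of these data known. Named genes are all cathepsins, tested genes of the pathway lists, the 3 largest changes each way among other lysosomal genes, and the 3 genes most like the member with the largest rise. Csta2, Csta3 and Ifi30 were not analysed here. Some genes that these rules name are not reported here.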

Additional observations from a re-analysis of the deposited data

Results flagged for a closer look

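For Ctso, KO replicate 1 (12.0 CPM, against 22.2 to 24.8 in the other knockout libraries) lay far from the rest of its group. Its gap to the nearest library was 0.848 of the whole range on the log2 scale, above Dixon's critical value of 0.829 for 4 samples. It was the single case among 12 groups examined (6 expressed cathepsins in 2 genotypes). Chance brings such a gap in about 1 in 20 independent groups of this size, but the 12 groups share the same 8 libraries and are not independent. The cause of the low value was not tested. Without KO replicate 1 the log2 fold change of Ctso was 2.30.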

How the results depend on the processing

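Over all rows, 5513 genes were called (2779 higher, 2734 lower). At an adjusted p under 0.01 the counts were 2736, 1488 and 1248. Leaving out 1 library gave 3809 to 6829 calls in all, 2041 to 3420 higher and 1768 to 3409 lower, the last count being smallest without KO replicate 3. The count of cathepsins called higher was 3 or 4 throughout, and none was called lower. Ctsz lost its call with a replicate block (log2 fold change 0.516, adjusted p = 0.0620) and at 0.01 (0.538), and lay between 0.363 and 0.633 with 1 library left out. The block also ended the calls of Gnptg (adjusted p = 0.0539) and H2-DMa (0.0613). The share of calls that were higher was 50.4% under TMM, 64.6% under upper-quartile scaling and 63.5% under library size alone. Of the other genes named, M6pr changed sign with upper-quartile factors (0.098), library size only (0.096) and the stricter filter (0.002), never with a call, and Tead4 lost its call with both those scalings (adjusted p = 0.0692 and 0.0800). Cst3 gained a call under 7 alternatives. The causes were not tested. Same-numbered libraries did not deviate together (r from -0.059 to 0.010), and 0 of 8 libraries correlated best with their own number. No pairing by number was seen in these values, but whether same-numbered libraries were handled together is not given in the labels. The block left 4683 calls. Depth does not limit the 6 expressed cathepsins, but it leaves Ctsc, Ctsf, Ctsh and Ctss undetectable below about 3 counts per library.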

Other observations

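The 3 annotated genes whose log2 levels over the 8 libraries were most like those of Ctso, the member with the largest rise, were Tnfrsf1b, which encodes a receptor for tumour necrosis factor (Pearson r = 0.996), and the complement protease genes C1rb (0.996) and C1s1 (0.995). These are descriptions over 8 libraries that share the genotype difference. C1s1 stood at 5.41, 18.2, 14.7 and 1.92 CPM in WT and at 94.9, 348.5, 284 and 251 in KO. Tnfrsf1b stood at 43.2, 78.4, 80.7 and 35.9 in WT and at 129, 245.5, 214 and 207 in KO. Like Ctso, both were lowest in WT replicate 4 and, among the knockout libraries, in KO replicate 1.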
